A study of Mus musculus with 8 samples.

Results

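The genes described here encode heat shock proteins and their DNAJ partners, taken by symbol from a table of gene expression in mouse hearts. The members are the protein-coding genes whose symbols begin with Hspa, Hspb, Hspd, Hspe or Hsph and a number, with Hsp90, or with Dnaja, Dnajb or Dnajc and a number. Hspa5, Hsp90b1 and Dnajb9, known for the stress response of the endoplasmic reticulum, were left out. This gave 69 members among 54532 listed genes, and no expression value was used to choose them. They were placed in 7 roles. These are 8 small heat shock proteins, 12 members of the HSP70 and HSP110 family outside mitochondria, 2 cytosolic HSP90 genes and 10 mitochondrial chaperones and DNAJ proteins. The others are 12 class A and B DNAJ proteins of the cytosol and nucleus, 9 DNAJ proteins of the endoplasmic reticulum and 16 other class C DNAJ proteins.

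RNA was sequenced from hearts of C57BL/6 mice in 4 groups of 2 libraries, which were Piezo1-Cko TAC, Piezo1-Cko sham, WT TAC and WT sham. TAC commonly stands for transverse aortic constriction, an operation that narrows the aorta and so makes the left ventricle pump against a high pressure. In sham surgery the aorta is not narrowed. Piezo1-Cko is the submitters' name for mice with an altered Piezo1 gene, whose protein is a cation channel opened by mechanical force. The labels give no Cre driver, deleted exon, age or time after surgery. Whether the 2 libraries of a group are from different mice is not stated. The p-values therefore rest on the spread among these libraries alone, and that spread may be technical. Recovered reads summed to 15574769 in WT sham replicate 2, the lowest, and to 17313084 in WT TAC replicate 2, the highest.

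Heat shock proteins bind unfolded or damaged proteins and keep them from clumping until they can be refolded or destroyed. Small heat shock proteins hold such clients without using ATP, while HSP70 and HSP90 fold them through cycles of ATP use, and DNAJ proteins bring clients to HSP70 and start its cycle. Heat shock factor HSF1 switches on many of these genes under stress by binding repeats of the unit nGAAn, known as the heat shock element. In heart muscle, small heat shock proteins are abundant and associate with the contractile apparatus.

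Of the 69 members, 60 had at least 0.5 FPKM and 10 reads in at least 2 libraries and were tested among 13928 genes. FPKM counts fragments per kilobase of a gene's length at a common library size, here a scaled size that is not the read total. The 9 others reached at most 0.402 FPKM and 12 reads in any library. These were Hspb9, Dnajb3, Dnajb7, Dnajb8, Dnajb13, Dnajc5b, Dnajc5g, Dnajc6 and Dnajc22, and Dnajc5g was at 0 in all 8 libraries. Averaged over the 8 libraries, 8 members stood at 100 FPKM or more, 23 at 10 to 100, 29 at 1 to 10 and 9 under 1. Hspb7, the small heat shock protein of heart and skeletal muscle, led the set at rank 41 of 22046 protein-coding genes by mean FPKM. Hsp90ab1 followed at rank 120, Hspb1 at 140, Hspa8 at 143, Hspb6 at 152 and Hspb8 at 180.

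**Figure D1:**
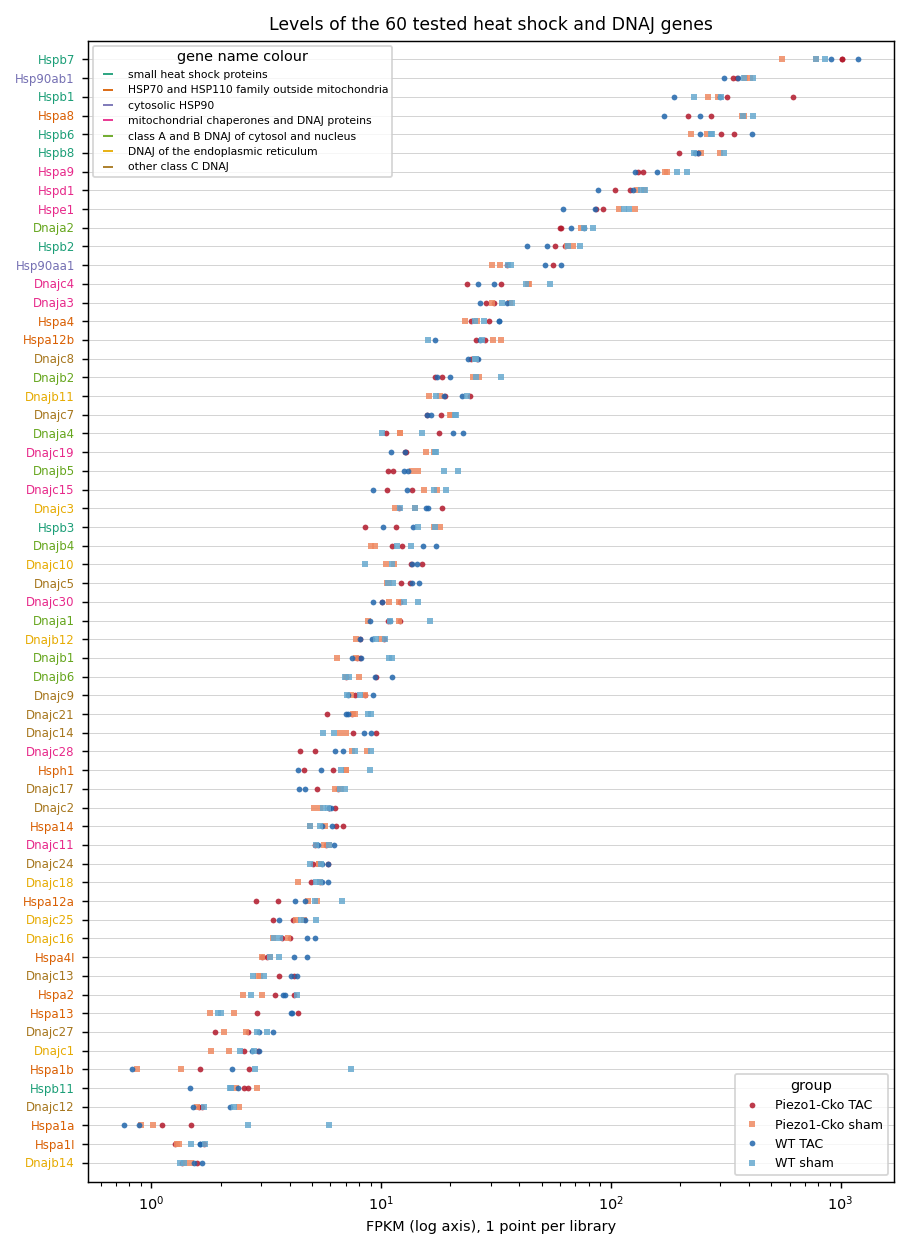
FPKM on a log axis of the 60 tested genes, 1 point for each of the 8 libraries, ordered by mean level, with circles for TAC and squares for sham. Hspb7 lies at the top, and Hspa1a and Hspa1b near the bottom have WT sham points, up to 5.91 and 7.37 FPKM, that lie to the right of the other groups.

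In the average of both genotypes, 23 of the 60 tested members differed between TAC and sham hearts at an adjusted p under 0.05, with 7 higher and 16 lower. All adjusted p-values come from limma, two-sided, with the Benjamini-Hochberg method over the 13928 genes, and fold changes are on the scale of log2(FPKM + 0.5), which understates the change of low genes. Across all tested genes, 25.4% were called in that average, 11.9% as higher and 13.5% as lower. At an unadjusted p under 0.05 there were 32 members, where 40.3% of all tested genes were. The median log2 fold change was -0.08 over the members and 0.01 over all tested genes. Libraries of the TAC and sham groups did not overlap for 7 members that were higher and 17 that were lower, where 13.1% of all tested genes were higher without overlap and 14.6% lower. Dnajb5, Hspa13, Dnajb2 and Hspa8 passed in each of the 8 fits that left out 1 library. Of the 23 calls, 8 were kept without Piezo1-Cko TAC replicate 1 and 20 without Piezo1-Cko TAC replicate 2. Without Piezo1-Cko sham replicate 1 there were 6, and without Piezo1-Cko sham replicate 2 there were 5. Leaving out WT TAC replicate 1 kept 9, WT TAC replicate 2 kept 17, WT sham replicate 1 kept 14 and WT sham replicate 2 kept 11. No call changed sign in these fits, and the adjusted p-values ranged up to 0.148. With no filter on low values 8 members passed, and without WT TAC replicate 1 and WT sham replicate 1 together 6 did.

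**Figure D2:**
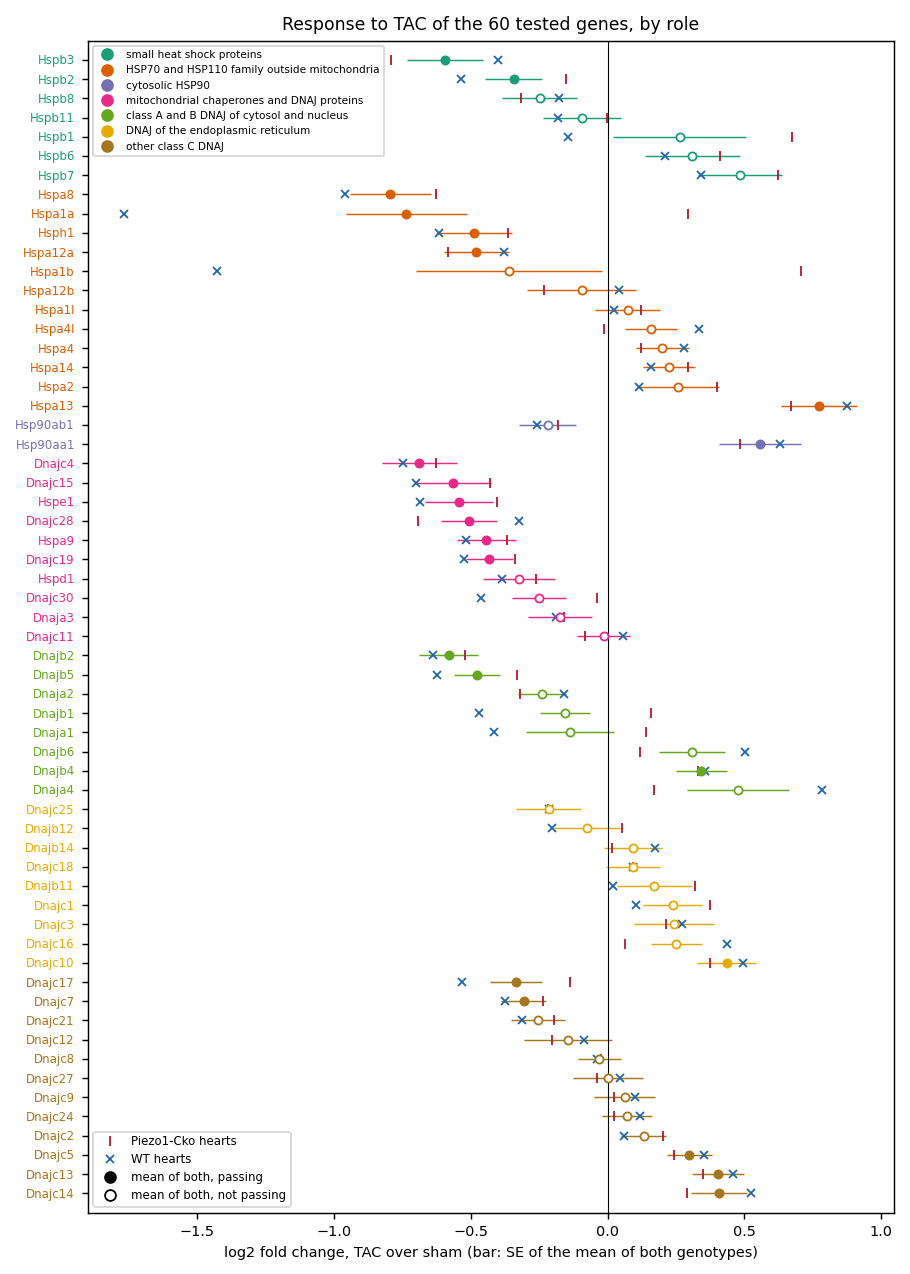
Log2 fold change of TAC over sham for each of the 60 tested genes in blocks by role, with the mean of both genotypes as a circle with its SE, filled where it passed. Bars mark Piezo1-Cko hearts and crosses WT hearts. All 10 mitochondrial members lie left of 0, and Hspa1a and Hspa1b have the widest gaps between the genotypes.

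Sums of cardiomyocyte, fibroblast and macrophage markers moved with the surgery, though not every marker did. Endothelial sums overlapped, at 402 to 848 FPKM in TAC and 402 to 777 in sham libraries. Red cell sums overlapped too, at 97.1 to 271 FPKM in TAC and 233 to 479 in sham libraries. The summed FPKM of 10 cardiomyocyte markers was 11256 to 13608 in the 4 TAC libraries and 17817 to 19585 in the 4 sham libraries, and none of the 10 was at 0. For 8 fibroblast markers the sum was 426 to 896 in TAC libraries and 191 to 326 in sham libraries. For 8 macrophage markers it was 502 to 824 in TAC and 323 to 391 in sham. In the average of both genotypes, 5 of the 10 cardiomyocyte markers were lower, where 13.5% of all tested genes were. As higher, 5 of the 8 fibroblast and all 8 macrophage markers passed, where 11.9% of all tested genes did. Of the fibroblast markers, 4 were higher without overlap, and Pdgfra, Dcn, Lum and Tcf21 overlapped. In bulk tissue, fewer cells of a type and less RNA per cell cannot be told apart. The part of these shifts in the members' values was not tested. A further 2 libraries stood apart in other lists. WT TAC replicate 1 had 307 FPKM summed over 5 B and plasma cell markers, against 11.4 to 35.1 in the other 7 libraries. WT sham replicate 1 had 394 FPKM of the atrial light chain Myl7, 43.6 of Sln and 40.4 of Myl4, against at most 0.442, 0 and 1.12 FPKM in the other 7 libraries. The fourth atrial marker, Nppa, also made by loaded ventricles, stood at 1855 FPKM in WT TAC replicate 1, at 515 to 742 in the other TAC libraries and at 97.9 to 116 in sham libraries. Without WT TAC replicate 1 and WT sham replicate 1, 6 of the 23 calls were kept.

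Of the 7 small heat shock proteins tested, 2 were lower under TAC and none higher, where 13.5% of all tested genes were lower and 11.9% higher. Hspb7 (ENSMUSG00000006221, chr4:141420779-141425311, plus strand, build GRCm38), which binds the actin crosslinker filamin C, had 1015 and 1019.9 FPKM in Piezo1-Cko TAC hearts and 557 and 783 FPKM in Piezo1-Cko sham hearts. It had 911 and 1188 FPKM in WT TAC hearts and 857 and 786 FPKM in WT sham hearts. All 4 TAC libraries were above all 4 sham libraries. The averaged log2 fold change was 0.48 (SE 0.153), and its limma adjusted p of 0.0547 missed the threshold.

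Hspb3, a small heat shock protein of muscle that pairs with Hspb2, fell under TAC. It stood at 8.54 and 11.6 FPKM in Piezo1-Cko TAC, 18.1 and 17.1 in Piezo1-Cko sham, 13.8 and 10.2 in WT TAC and 17.2 and 14.4 in WT sham hearts. No TAC library reached the lowest sham library. The averaged log2 fold change was -0.59 (SE 0.139, limma adjusted p 0.0217), and the call was lost without Piezo1-Cko TAC replicate 1, either Piezo1-Cko sham library or WT sham replicate 1, with adjusted p up to 0.0775. Hspb2 was at 63.3 and 56.9 FPKM in Piezo1-Cko TAC, 64.6 and 68.7 in Piezo1-Cko sham, 43.0 and 52.6 in WT TAC and 64.9 and 73.6 in WT sham hearts. Its groups did not overlap either, with a log2 fold change of -0.34 (SE 0.104) at a limma adjusted p of 0.0476, and leaving out any library other than WT TAC replicate 2 took it to up to 0.148. Hspb2 overlaps the abundant small heat shock gene Cryab, at a mean of 1006 FPKM, on the other strand. Whether the counting used strand is not given in the sources used here, so reads of the pair may have been mixed.

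The other abundant small heat shock proteins did not pass. Hspb1, the actin-binding HSP25 of mice, had 619.6 and 320.4 FPKM in Piezo1-Cko TAC, 266 and 294 in Piezo1-Cko sham, 188 and 300.1 in WT TAC and 229.7 and 301 in WT sham hearts. Piezo1-Cko TAC replicate 1 lay far above the other 7 libraries, and the WT groups overlapped. Hspb6, the HSP20 that protein kinase A phosphorylates in cardiomyocytes, ranged from 244 to 411 FPKM in TAC libraries and 223 to 275 in sham libraries. Hspb8, which works with the co-chaperone Bag3 in removing damaged proteins, ranged from 198 to 239.7 FPKM in TAC and 229.5 to 310.5 in sham libraries. Their averaged log2 fold changes were 0.26 (SE 0.244) for Hspb1, 0.31 (SE 0.173) for Hspb6 and -0.25 (SE 0.138) for Hspb8, with limma adjusted p-values of 0.452, 0.219 and 0.217 in that order.

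The make-up of the whole set by level also differed between surgeries. Small heat shock proteins held 54.9% to 59.5% of the members' summed FPKM in the 4 TAC libraries and 43.7% to 49.2% in the 4 sham libraries, with no overlap. Hspb7 alone held 27.3% to 31.5% in TAC and 17.7% to 23.8% in sham libraries. The share of the other small heat shock proteins together overlapped between the surgeries, so this separation rests on Hspb7. The HSP70 and HSP110 family outside mitochondria held 8.19% to 10.2% in TAC and 13.0% to 14.7% in sham libraries, and the mitochondrial members 12.1% to 12.8% in TAC and 16.3% to 17.3% in sham libraries. Hspa8 made up most of the HSP70 and HSP110 sum. The rest of that family overlapped between the surgeries, so the separation of its share rests on Hspa8. The summed FPKM of all members itself overlapped, at 2995 to 3773 in TAC and 3153 to 3617 in sham libraries. These shares are a description, with no test.

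In the HSP70 and HSP110 family outside mitochondria, 1 of 12 members was higher under TAC in the average of both genotypes and 4 were lower, against 11.9% and 13.5% of all tested genes. Hspa8 (ENSMUSG00000015656, chr9:40800984-40810087, plus strand) encodes the constitutive HSC70 of every cell. It had 216 and 273 FPKM in Piezo1-Cko TAC, 379 and 372 in Piezo1-Cko sham, 169.7 and 244 in WT TAC and 416 and 377 in WT sham hearts. The 4 TAC libraries lay below the 4 sham libraries by a wide margin. The fall was 1.73-fold (log2 fold change -0.79, SE 0.147, limma adjusted p 0.0106). Hspa8 has 6 other loci of at least 95% identity over at least 200 bases, most of them processed pseudogenes, so its value depends on how the authors' counting treated shared reads.

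Hspa13 (ENSMUSG00000032932, chr16:75745431-75767104, minus strand), a small HSP70-like protein of microsomes, was the member of this family that rose. It stood at 4.34 and 2.87 FPKM in Piezo1-Cko TAC, 2.29 and 1.81 in Piezo1-Cko sham, 4.04 and 4.08 in WT TAC and 1.96 and 2.01 in WT sham hearts. All TAC libraries were above all sham libraries. The rise was 1.71-fold (log2 fold change 0.77, SE 0.138, limma adjusted p 0.00965), the largest rise among the members tested. With both WT TAC replicate 1 and WT sham replicate 1 left out, the call was lost.

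Hsph1, the HSP110 that exchanges the nucleotide of HSP70, had 6.16 and 4.64 FPKM in Piezo1-Cko TAC, 6.998 and 7.03 in Piezo1-Cko sham, 4.34 and 5.49 in WT TAC and 6.70 and 8.92 in WT sham hearts. The surgeries did not overlap, and the log2 fold change was -0.49 (SE 0.137, limma adjusted p 0.0381). That call was lost without Piezo1-Cko TAC replicate 2, either Piezo1-Cko sham library, WT TAC replicate 1 or WT sham replicate 2, at up to 0.106. Hspa12a, a distant HSP70 relative, was at 2.86 and 3.55 FPKM in Piezo1-Cko TAC, 5.24 and 4.81 in Piezo1-Cko sham, 4.66 and 4.23 in WT TAC and 6.75 and 5.18 in WT sham hearts. It fell by 0.48 on the log2 scale (SE 0.118, limma adjusted p 0.0255), and passed only without Piezo1-Cko TAC replicate 2 or WT sham replicate 2 among the fits that left out 1 library, reaching 0.0907 in the rest. Of the 7 family members that did not pass, Hspa4, Hspa4l, Hspa14, Hspa1l and Hspa2 had averaged log2 fold changes of 0.07 to 0.26, and Hspa12b, known from endothelial cells, had -0.09. That value was 0.06 with WT TAC replicate 1 left out and 0.10 with WT sham replicate 2 left out.

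Hspa1a and Hspa1b, the classic stress-inducible HSP70 genes, were expressed at a low level and were highest in WT sham hearts. They lie 9951 bases apart on chromosome 17, both on the minus strand, and share 99.23% of 2201 aligned transcript bases, so reads may have been split between them. The 250 bases before each start, taken from RefSeq on GRCm38.p6, are shown because they are the stretch where heat shock factors are known to act and are themselves near copies, with 247 of 250 bases identical (98.8%). Capitals mark the match to GAANNTTC, 2 units of the heat shock element, whose first base lies 104 bases before the start in both. The windows are chr17:34972157-34972406 for Hspa1a and chr17:34959239-34959488 for Hspa1b, minus strand, 5′ to 3′.
Hspa1a: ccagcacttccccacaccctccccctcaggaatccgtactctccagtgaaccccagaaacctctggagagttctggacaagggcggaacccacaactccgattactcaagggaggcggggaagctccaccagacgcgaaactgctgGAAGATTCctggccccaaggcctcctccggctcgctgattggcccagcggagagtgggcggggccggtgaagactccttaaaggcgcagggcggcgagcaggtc
Hspa1b: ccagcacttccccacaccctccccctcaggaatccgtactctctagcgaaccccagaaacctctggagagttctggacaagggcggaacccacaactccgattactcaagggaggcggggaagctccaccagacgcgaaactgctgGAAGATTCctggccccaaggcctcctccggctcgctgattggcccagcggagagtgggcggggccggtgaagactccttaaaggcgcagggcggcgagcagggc

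Hspa1a (ENSMUSG00000091971, chr17:34969190-34972156) had 1.48 and 1.11 FPKM in Piezo1-Cko TAC, 1.01 and 0.903 in Piezo1-Cko sham, 0.761 and 0.878 in WT TAC and 2.63 and 5.91 in WT sham hearts. These values rest on 41 to 81 reads in the 6 libraries of the first 3 groups, and on 111 and 249 reads in WT sham hearts. Both WT sham libraries lay above the other 6, and they differed from each other by more than the 2 libraries of any other group. In WT hearts the log2 fold change of TAC over sham was -1.77 (SE 0.313, limma adjusted p 0.0213), a 3.40-fold fall. Its adjusted p rose to 0.0947 without WT TAC replicate 1 and to 0.0555 without WT sham replicate 2, where the log2 fold change was -1.25. In Piezo1-Cko hearts it was 0.30 (SE 0.313, limma adjusted p 0.632), and over the fits that left out 1 library the lowest adjusted p was 0.372.

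The averaged fall of Hspa1a, -0.74 (SE 0.222, limma adjusted p 0.0471), thus joined a fall in WT hearts with a value above 0 in Piezo1-Cko hearts, and the TAC and sham libraries overlapped. It passed in 1 of the 8 fits that left out a library, the one without WT sham replicate 1, and reached 0.127 in the others. It also missed with a pseudocount of 1 FPKM (adjusted p 0.0536) and with limma-voom (0.0853). Hspa1b (ENSMUSG00000090877, chr17:34956436-34959238) had 2.65 and 1.63 FPKM in Piezo1-Cko TAC, 1.35 and 0.862 in Piezo1-Cko sham, 0.825 and 2.24 in WT TAC and 2.84 and 7.37 in WT sham hearts. As with its neighbour, both WT sham libraries were the highest. Its log2 fold change was -1.43 in WT hearts (SE 0.479, limma adjusted p 0.0856) and 0.71 in Piezo1-Cko hearts (SE 0.479, limma adjusted p 0.438).

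The highest value of 17 of the 60 tested members (28.3%) was in WT sham replicate 2, which held the highest value of 20% of all tested genes. Among genes picked after their values were seen, the co-chaperone Bag3 stood at 116 FPKM there and at 49.6 to 71.6 FPKM in the other 7 libraries, and Dnaja1 at 16.3 FPKM against 8.75 to 12.1. Hsp90aa1, Dnajb1 and Hspb1 were not highest in that library. The libraries differed in clock genes as well. An index of 8 clock-controlled genes minus 3 genes of the opposite phase, in log2 units, was 1.24 and 1.60 in Piezo1-Cko TAC, -1.91 and 1.18 in Piezo1-Cko sham, -1.95 and 0.05 in WT TAC and -1.60 and 1.40 in WT sham hearts. It was lower in replicate 1 than in replicate 2 in all 4 groups, by the least in Piezo1-Cko TAC. With the index as a covariate, Hspa1a kept its call in WT hearts (log2 fold change -1.66, limma adjusted p 0.0337). In that fit 2 of the 9 member calls in WT hearts, given below, were kept. The Hspa1a value in Piezo1-Cko hearts went from 0.30 to 0.06, and its interaction of genotype and surgery from 2.06 to 1.72. The part of the clock genes in these values was not tested.

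**Figure D3:**
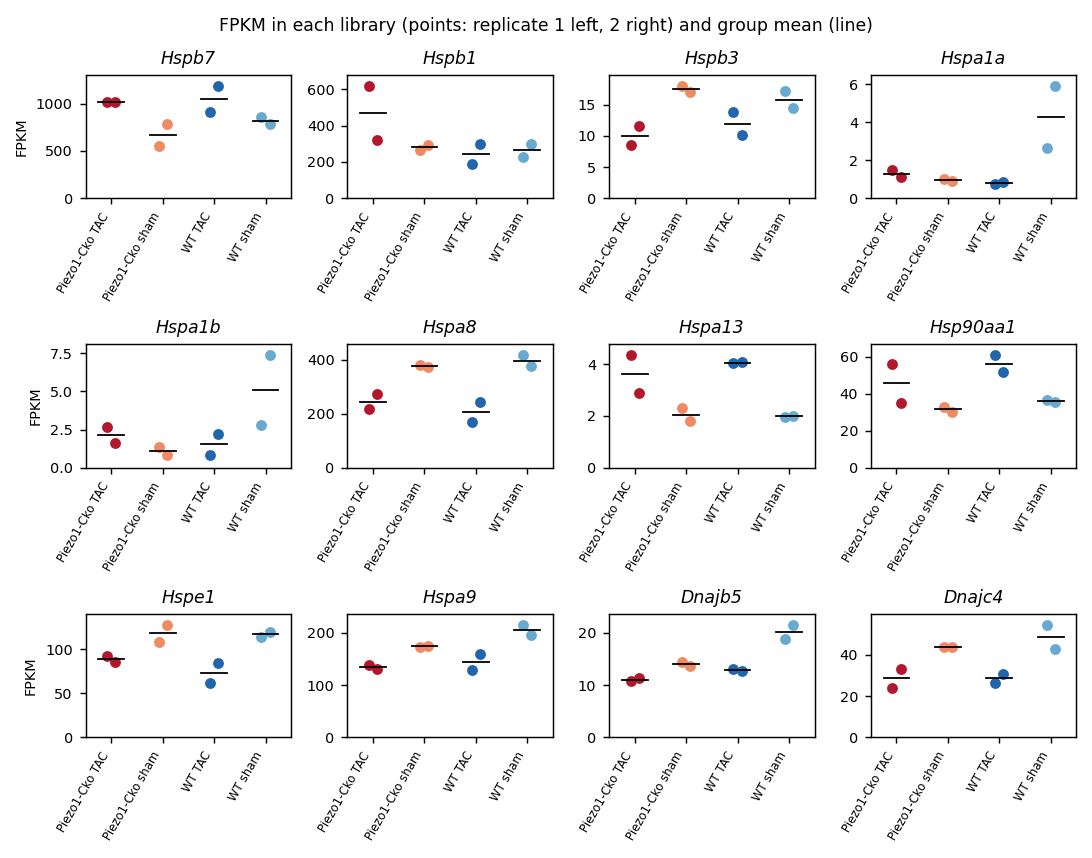
FPKM of 12 members in each library, replicate 1 left and replicate 2 right, with the group mean as a line and groups in the order Piezo1-Cko TAC, Piezo1-Cko sham, WT TAC, WT sham. Hspa1a and Hspa1b stand out in WT sham hearts, with 5.91 and 7.37 FPKM in replicate 2, and Hspa8, Hspe1, Hspa9 and Dnajc4 are low in all 4 TAC libraries.

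Of the 2 cytosolic HSP90 genes, 1 rose under TAC and the other did not pass. Hsp90aa1, the inducible form, had 56.0 and 35.2 FPKM in Piezo1-Cko TAC, 32.9 and 30.3 in Piezo1-Cko sham, 60.7 and 51.8 in WT TAC and 36.6 and 35.5 in WT sham hearts. Piezo1-Cko TAC replicate 2 lay within the sham range and the other TAC libraries above it. The averaged log2 fold change was 0.56 (SE 0.150, limma adjusted p 0.0329), a call kept only without Piezo1-Cko TAC replicate 2 or WT TAC replicate 2, with 0.104 at most in the other 6 fits. Hsp90ab1, the constitutive form, had 355 and 342 FPKM in Piezo1-Cko TAC, 405 and 385 in Piezo1-Cko sham, 309.7 and 357 in WT TAC and 417 and 379 in WT sham hearts. Its TAC libraries lay below its sham libraries, but the log2 fold change was -0.22 (SE 0.103) and missed the threshold (limma adjusted p 0.155). The ratio of Hsp90aa1 to Hsp90ab1 in FPKM was 0.103 to 0.196 in TAC libraries and 0.0789 to 0.0937 in sham libraries, with no overlap. Hsp90aa1 has 3 near-identical copies elsewhere in the genome.

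The mitochondrial members showed the most uniform direction. All 10 had averaged log2 fold changes below 0, with a median of -0.44 against 0.01 over all tested genes, and 6 of them were lower, where 13.5% of all tested genes were. The 10 share a compartment, and genes of one compartment are not independent of each other. Hspe1 and Hspd1 encode HSP10 and HSP60, the lid and barrel of the mitochondrial chaperonin, and overlap head to head by 112 bases on opposite strands of chromosome 1, where reads of the pair may have been mixed. Hspe1 had 92.2 and 85.9 FPKM in Piezo1-Cko TAC, 108 and 128 in Piezo1-Cko sham, 62.1 and 84.9 in WT TAC and 114 and 120.3 in WT sham hearts. All TAC libraries were below all sham libraries. The log2 fold change was -0.54 (SE 0.125, limma adjusted p 0.0204), lost without Piezo1-Cko TAC replicate 1, either Piezo1-Cko sham library or WT sham replicate 2, at up to 0.0799. Hspd1 had 121 and 105 FPKM in Piezo1-Cko TAC, 129.6 and 139.9 in Piezo1-Cko sham, 88.3 and 125 in WT TAC and 140.3 and 135 in WT sham hearts. It too was without overlap. Its log2 fold change of -0.32 (SE 0.130) missed the threshold (limma adjusted p 0.106).

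This pair shares its upstream stretch and the heat shock element with the most units found among the members, so the element is shown as each gene's strand reads it, 5′ to 3′, in capitals throughout. Its first base lies 89 bases before the start of Hspe1 and 144 bases before the start of Hspd1 that RefSeq places further inside the gene. Hsph1, whose fall is given above, has 1 match of 3 units on chromosome 5, which lies after its start, beginning at base 16 or base 37 counted from the start, by which of its 2 listed starts is used. The match of Dnajb6 begins 46 or 127 bases before its 2 listed starts.
Hspe1: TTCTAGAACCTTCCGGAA
Hspd1: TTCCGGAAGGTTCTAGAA
Hsph1: TTCTGGAAAGTTC
Dnajb6: GAATCTTCCGGAA
Windows of 250 bases before to 50 after a start were found in RefSeq for 55 of the 69 members. An element of 3 units, meaning alternating GAA and TTC with any 2 letters between them, read on both strands, was present in 4 of the 55 (7.27%), namely Hspd1, Hspe1, Hsph1 and Dnajb6. Of 27025 listed genes with a window, 0.662% had it. The shorter GAANNTTC or TTCNNGAA, which lies within it and reads the same on both strands, was present in 16 of the 55 (29.1%), against 17% of listed genes and 14% of those past the filter. Of the 4 with 3 units, Hspe1 and Hsph1 fell, Hspd1 did not pass, and Dnajb6 did not pass at a log2 fold change of 0.31 (SE 0.1202, limma adjusted p 0.0955). A match of letters is a description and shows no binding.

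Hspa9, the mitochondrial HSP70 that pulls imported proteins through the inner membrane, had 138 and 131 FPKM in Piezo1-Cko TAC, 173 and 175 in Piezo1-Cko sham, 128 and 159 in WT TAC and 215 and 195 in WT sham hearts. TAC lay below sham in every library. It fell by 0.44 on the log2 scale (SE 0.106, limma adjusted p 0.0235). Dnajc19 and Dnajc15 encode J proteins of the same import motor, and mutations of DNAJC19 in people cause a dilated cardiomyopathy with ataxia. Dnajc19 had 12.7 and 12.9 FPKM in Piezo1-Cko TAC, 15.6 and 16.9 in Piezo1-Cko sham, 11.01 and 12.7 in WT TAC and 17.2 and 17.3 in WT sham hearts. Dnajc15 had 10.7 and 13.7 FPKM in Piezo1-Cko TAC, 15.4 and 17.5 in Piezo1-Cko sham, 9.20 and 12.9 in WT TAC and 17.0 and 19.1 in WT sham hearts. Neither gene had a TAC library within its sham range. The log2 fold changes were -0.43 (SE 0.0849, limma adjusted p 0.0127) for Dnajc19 and -0.56 (SE 0.137, limma adjusted p 0.0243) for Dnajc15.

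Dnajc4 had 23.7 and 33.3 FPKM in Piezo1-Cko TAC, 43.9 and 43.5 in Piezo1-Cko sham, 26.5 and 30.9 in WT TAC and 54.5 and 42.9 in WT sham hearts. Dnajc28 had 5.14 and 4.45 FPKM in Piezo1-Cko TAC, 7.43 and 8.69 in Piezo1-Cko sham, 6.30 and 6.82 in WT TAC and 9.02 and 7.67 in WT sham hearts. In both genes TAC and sham were apart. The averaged log2 fold change was -0.69 for Dnajc4 (SE 0.136, limma adjusted p 0.0129) and -0.51 for Dnajc28 (SE 0.103, limma adjusted p 0.0140). Of the 6 calls, that of Dnajc4 was lost without Piezo1-Cko sham replicate 1 (0.0531) and those of Dnajc19 (0.0587) and Dnajc28 (0.0587) without Piezo1-Cko sham replicate 2. Hspa9 was lost without Piezo1-Cko TAC replicate 1, either Piezo1-Cko sham library, WT TAC replicate 1 or WT sham replicate 1, at up to 0.0862. Dnajc15 was lost without the first 4 of these or WT sham replicate 2, at up to 0.0859. Dnajc19 has a pseudogene copy, itself at a mean of 8.76 FPKM, with 98.93% identity over 281 bases. The gene also overlaps Fxr1, at a mean of 20.1 FPKM, on the other strand, so reads may have been mixed.

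**Figure D4:**
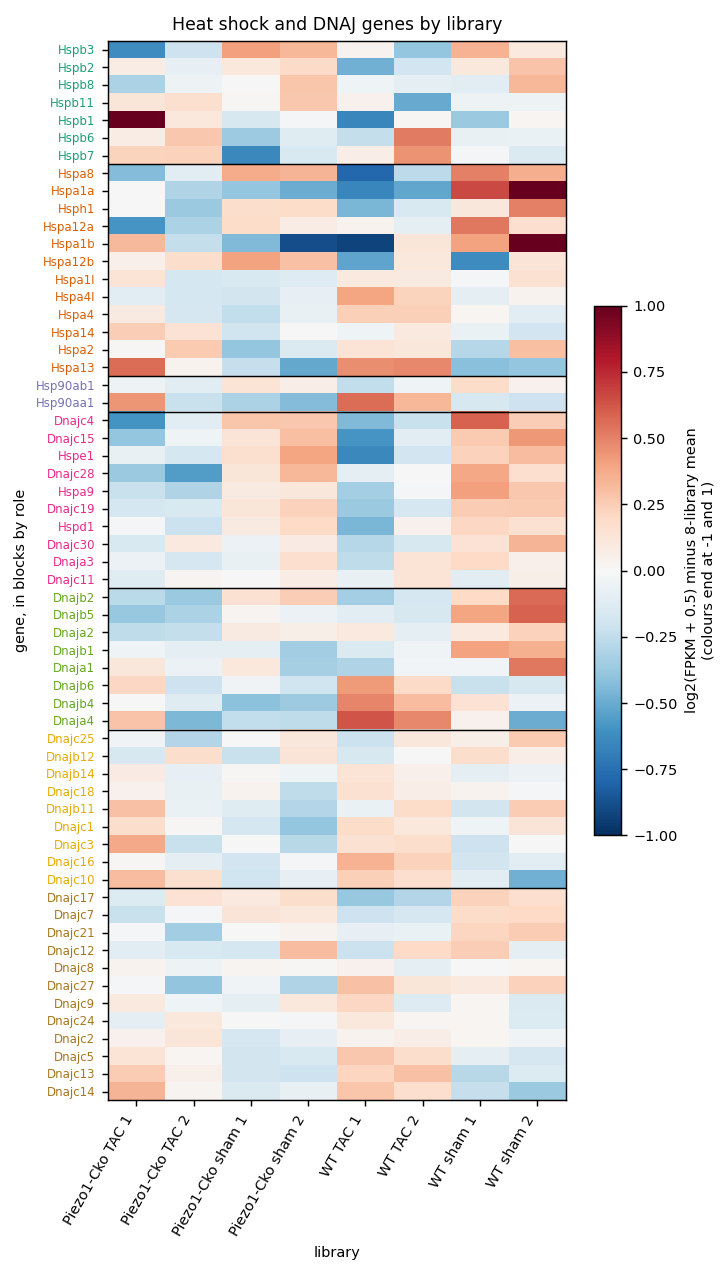
Each library's log2(FPKM + 0.5) minus the gene's mean over the 8 libraries, for the 60 tested genes in blocks by role, with TAC and sham columns of each genotype side by side and colours ending at -1 and 1. The mitochondrial block is blue in most TAC cells and red in sham cells, and the medians of its 10 genes run from -0.35 to -0.07 in TAC libraries and 0.11 to 0.25 in sham libraries.

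Among the 8 tested class A and B DNAJ proteins of the cytosol and nucleus, 2 were lower and 1 higher, beside 13.5% and 11.9% of all tested genes, so these counts are near the background. Dnajb5 (ENSMUSG00000036052, chr4:42949814-42959425, plus strand), which in heart muscle cells takes part in the redox control of the histone deacetylase HDAC4, had 10.8 and 11.3 FPKM in Piezo1-Cko TAC and 14.4 and 13.6 FPKM in Piezo1-Cko sham hearts. It had 13.1 and 12.6 FPKM in WT TAC and 18.7 and 21.5 FPKM in WT sham hearts. TAC was lower within each genotype, and the Piezo1-Cko libraries were lower within each surgery. The averaged log2 fold change was -0.48 (SE 0.0851, limma adjusted p 0.00963), the smallest p among the members in that average.

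Dnajb2, a ubiquitin-binding DNAJ protein, had 18.5 and 17.2 FPKM in Piezo1-Cko TAC, 25.01 and 26.6 in Piezo1-Cko sham, 17.6 and 19.9 in WT TAC and 25.8 and 33.4 in WT sham hearts. It showed no overlap, with a log2 fold change of -0.58 (SE 0.107, limma adjusted p 0.0104). Dnajb4, an HSP70 partner abundant in striated muscle, rose by 0.34 on the log2 scale (SE 0.0929, limma adjusted p 0.0337). It had 12.3 and 11.2 FPKM in Piezo1-Cko TAC, 9.05 and 9.41 in Piezo1-Cko sham, 17.4 and 15.2 in WT TAC and 13.5 and 11.7 in WT sham hearts. Its surgeries were apart within each genotype and overlapped across them. The call of Dnajb4 was lost without Piezo1-Cko TAC replicate 1, either Piezo1-Cko sham library, WT TAC replicate 1 or WT sham replicate 2, at up to 0.114. Dnaja1 and Dnajb1, the general HSP40 partners of cytosolic HSP70, did not pass, at -0.14 (SE 0.159, limma adjusted p 0.553) and -0.15 (SE 0.0919, limma adjusted p 0.246). With WT sham replicate 2 left out, Dnaja1 was at 0.0014.

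Of the 9 DNAJ proteins of the endoplasmic reticulum, 7 had averaged log2 fold changes above 0 and 1 passed as higher, where 11.9% of all tested genes did. Dnajc10, the reductase that opens disulfide bonds of misfolded proteins, had 15.1 and 13.5 FPKM in Piezo1-Cko TAC, 10.5 and 11.4 in Piezo1-Cko sham, 14.3 and 13.6 in WT TAC and 11.1 and 8.51 in WT sham hearts. All TAC libraries were above all sham libraries, at a log2 fold change of 0.44 (SE 0.107, limma adjusted p 0.0254). The call was lost without Piezo1-Cko TAC replicate 1, either Piezo1-Cko sham library, WT TAC replicate 1 or WT sham replicate 2, at up to 0.0942.

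Among the 12 other class C DNAJ proteins tested, 3 were higher and 2 lower, beside 11.9% and 13.5% of all tested genes, and the count of lower ones is near that background. Dnajc14, a membrane DNAJ protein, had 9.48 and 7.54 FPKM in Piezo1-Cko TAC, 6.65 and 7.01 in Piezo1-Cko sham, 9.06 and 8.38 in WT TAC and 6.24 and 5.599 in WT sham hearts. Dnajc13, which works on endosomes, and Dnajc5, the cysteine string protein of vesicles, were higher too. Their TAC libraries were all above their sham libraries, with log2 fold changes of 0.41 for Dnajc14 (SE 0.102), 0.40 for Dnajc13 (SE 0.0953) and 0.30 for Dnajc5 (SE 0.0810) at limma adjusted p-values of 0.0266, 0.0224 and 0.0337. Dnajc7, which links HSP70 and HSP90, and Dnajc17, a factor of mRNA splicing, fell by 0.31 (SE 0.0827, limma adjusted p 0.0334) and 0.33 (SE 0.0963, limma adjusted p 0.0408) on the log2 scale. In Dnajc17 the TAC and sham libraries overlapped. By position, the Dnajc14 gene overlaps Sarnp, at a mean of 8.48 FPKM, on the same strand. The Dnajc7 gene overlaps Nkiras2, at a mean of 15.4 FPKM, on the other strand. Reads of these pairs may have been mixed.
Each of these 5 calls was lost without Piezo1-Cko TAC replicate 1, either Piezo1-Cko sham library or WT TAC replicate 1. Dnajc13 was also lost without WT TAC replicate 2 or WT sham replicate 1, Dnajc14 without WT sham replicate 2, and the other 3 genes without WT TAC replicate 2 or either WT sham library. The adjusted p-values reached 0.0776 for Dnajc13, 0.0950 for Dnajc14, 0.116 for Dnajc5, 0.114 for Dnajc7 and 0.130 for Dnajc17.

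In WT hearts alone, 9 of the 60 tested members passed, 1 higher and 8 lower, where 13.2% of all tested genes were called, 5.57% as higher and 7.65% as lower. At an unadjusted p under 0.05 there were 27, where 33.7% of all tested genes were. The median log2 fold change was -0.12 over the members and 0.01 over all tested genes. TAC and sham libraries did not overlap for 19 members that were higher and 25 that were lower, where 31.3% and 30.9% of all tested genes did so. Hspb7 was at 0.34 (SE 0.217, limma adjusted p 0.302). Hspa13 was the member that rose (log2 fold change 0.88, SE 0.196, limma adjusted p 0.0323). Those that fell were Hspa1a and Hspa8 (-0.96, SE 0.207, limma adjusted p 0.0298), the mitochondrial Dnajc4, Hspe1 and Dnajc19, and Dnajb2, Dnajb5 and Dnajc17, with log2 fold changes of -0.75 to -0.53 in the last 6. None of the 9 passed in all 8 fits that left out 1 library. Leaving out either Piezo1-Cko TAC library kept 8, and leaving out either Piezo1-Cko sham library kept 1, Hspa1a. Without WT TAC replicate 1 or WT sham replicate 2 none was kept, without WT TAC replicate 2 there were 4 and without WT sham replicate 1 there were 3, with adjusted p-values of 0.0204 to 0.179 over these fits. With the clock index as a covariate 2 members passed, with limma-voom 14 did, and with no filter, or without WT TAC replicate 1 and WT sham replicate 1 together, none did.

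In Piezo1-Cko hearts alone, limma called 0 of the 60 members, where 1.49% of all tested genes passed, 0.948% as higher and 0.546% as lower. An unadjusted p under 0.05 was reached by 16 members and by 21.8% of all tested genes. Limma-voom on the recovered reads called 0 as well. The smallest p-values belonged to Dnajc28 (log2 fold change -0.69, SE 0.146, limma adjusted p 0.0603), Hspb3 (-0.79, SE 0.197, 0.0804) and Hspa12a (-0.58, SE 0.167, 0.106), which did not pass. Hspb7 was at 0.62 (SE 0.217, limma adjusted p 0.153) and Hspa8 at -0.63 (SE 0.207, limma adjusted p 0.138). TAC and sham did not overlap for 18 members that were higher and 21 that were lower, where 28% and 28.3% of all tested genes did so. Of the 60 members, 50 (83.3%) had the same sign in Piezo1-Cko as in WT hearts, and 77% of all tested genes did.

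Piezo1 itself stood at 5.24 and 3.89 FPKM in Piezo1-Cko TAC, 3.83 and 3.24 in Piezo1-Cko sham, 5.38 and 5.83 in WT TAC and 2.35 and 3.09 in WT sham hearts. Both sham libraries labelled Piezo1-Cko were above both WT sham libraries. A value over the whole gene does not check the label while the deleted part is not given, so the genotype comparisons are between libraries labelled Piezo1-Cko and WT.

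Under sham surgery, limma called 0 of the 60 members between libraries labelled Piezo1-Cko and WT, where 0.0215% of all tested genes passed, 0.0144% as higher and 0.00718% as lower. An unadjusted p under 0.05 was reached by 5 members (8.33%) and by 7.68% of all tested genes, a share near that background. The 5 members had log2 fold changes below 0. Hspa1a had the smallest p (log2 fold change -1.62, SE 0.313, limma adjusted p 0.296), followed by Dnajb1 (-0.60, SE 0.130, 0.343) and Dnajb5 (-0.51, SE 0.1203, 0.397), and Hspa1b (-1.69, SE 0.479, 0.489) and Dnajb4 (-0.43, SE 0.131, 0.511) came next. Dnajb1 had 7.76 and 6.44 FPKM in Piezo1-Cko sham and 11.2 and 10.8 FPKM in WT sham hearts. Each of these 5 genes had both Piezo1-Cko sham libraries below both WT sham libraries. Endothelial markers moved with the same contrast. Their sum over 6 genes was 724 and 777 FPKM in Piezo1-Cko sham and 402 and 596 FPKM in WT sham hearts, all 6 were higher without overlap at a median log2 fold change of 0.56, none passed, and none was at 0. Their part in the members' values was not tested. Over all members, 4 were higher and 18 lower without overlap, where 19.3% and 20.3% of all tested genes were. Hspb7 was at -0.31 (SE 0.217, limma adjusted p 0.820).

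Under TAC, limma called 0 of the 60 members between libraries labelled Piezo1-Cko and WT, where 0% of all tested genes passed. An unadjusted p under 0.05 was reached by 8 members and by 9.11% of all tested genes. The endothelial sum was 686 and 848 FPKM in Piezo1-Cko TAC and 402 and 660 FPKM in WT TAC hearts. Within it, Fabp4 stood at 405 and 498 FPKM in Piezo1-Cko TAC and 193 and 340 FPKM in WT TAC hearts, without overlap. For Pecam1, Cdh5, Kdr, Tek and Egfl7 the genotypes overlapped, so the separation of the sums rests on Fabp4. Dnajb4 (log2 fold change -0.46, SE 0.131, limma adjusted p 0.508), Hspa4l (-0.45, SE 0.134, 0.508) and Dnajc28 (-0.42, SE 0.146, 0.518) had the smallest p-values. Hspa4l, an HSP110 relative, had 3.19 and 3.04 FPKM in Piezo1-Cko TAC and 4.76 and 4.16 FPKM in WT TAC hearts, without overlap. Hspb1 had the largest difference above 0, at 0.90 (SE 0.345, limma adjusted p 0.531). Hspb7 was at -0.03 (SE 0.217, limma adjusted p 0.968), or 0.16 without WT TAC replicate 2, and Hspa1a at 0.44 (SE 0.313, limma adjusted p 0.677).

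The interaction asks whether the response to TAC differed between the genotypes, as the Piezo1-Cko response minus the WT response. Limma called 0 of the 60 members, where 0.00718% of all tested genes passed. An unadjusted p under 0.05 was reached by 3 members (5%) and by 4.77% of all tested genes, about the same share. The 3 were Hspa1a (2.06, SE 0.443, limma adjusted p 0.911), Dnajb1 (0.63, SE 0.184, 0.911) and Hspa1b (2.13, SE 0.677, 0.911), whose WT sham libraries are the high ones in the values above. Limma-voom on the recovered reads also called 0 in the interaction and in both genotype comparisons. Hspb7 was at 0.28 (SE 0.306, limma adjusted p 0.928). The difference in the number of calls between WT and Piezo1-Cko hearts is therefore not a difference in response that passed for any member.

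Partners of these chaperones were taken from lists of related genes, chosen with earlier results of these data known. Fits with left-out libraries and the other alternatives were not examined for these genes, so whether their calls hold there is not known. The counts that follow stand beside 13.5% of all tested genes lower and 11.9% higher in the average of both genotypes. Of 14 tested HSP90 co-chaperones, 5 were lower in the average of both genotypes and none higher, with a median log2 fold change of -0.23. Fkbp4, an HSP90 co-chaperone of steroid receptors, had 75.3 and 91.2 FPKM in Piezo1-Cko TAC, 155 and 167 in Piezo1-Cko sham, 58.5 and 86.9 in WT TAC and 158 and 160.6 in WT sham hearts. No TAC library came near the sham libraries, and the log2 fold change was -1.05 (SE 0.142, limma adjusted p 0.00477). The others were the myosin chaperone Unc45b (-0.56), the kinase adaptor Cdc37 (-0.35), Ptges3 (-0.32) and Ahsa1 (-0.41). Of 6 prefoldin subunits, which hand actin and tubulin to the TRiC chaperonin, 3 were lower, with Pfdn5 at -0.76, Pfdn6 at -0.80 and Pfdn2 at -0.38. Of 8 TRiC subunits 1 was lower, Cct7 at -0.33.

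Of 10 BAG proteins and other HSP70 co-chaperones, 2 were lower, the exchange factor Sil1 at -0.61 and Bag1 at -0.54. Of 5 heat shock factors and their binding proteins, 3 were lower. Hsf1, the main heat shock factor, had 3.92 and 4.57 FPKM in Piezo1-Cko TAC, 6.42 and 5.41 in Piezo1-Cko sham, 4.40 and 4.81 in WT TAC and 5.89 and 5.78 in WT sham hearts. TAC was below sham in every library, at a log2 fold change of -0.37 (SE 0.0988, limma adjusted p 0.0319), and Hsf4 (-0.82) and Hsbp1l1 (-1.05) fell too. Of 3 tested crystallins and other chaperones, 2 were higher, Serpinh1, the collagen chaperone HSP47 of the secretory pathway, at 0.76 (SE 0.119, limma adjusted p 0.00687) and the secreted chaperone Clu at 0.91 (SE 0.251, limma adjusted p 0.0356). Serpinh1 had 301 and 262 FPKM in Piezo1-Cko TAC and 155 and 149 in Piezo1-Cko sham hearts. It had 176 and 226 FPKM in WT TAC and 121 and 137 in WT sham hearts. Its TAC libraries lay above its sham libraries, as in the fibroblast sum above. That sum was highest in WT TAC replicate 1, where Serpinh1 was lowest among the TAC libraries. The part of the fibroblast markers was not tested. Clu had 455 FPKM in WT TAC replicate 1, 209 to 315 in the other TAC libraries and 130 to 169 in sham libraries. Cryab, at 560 to 1089.9 FPKM in TAC and 1048.8 to 1257.3 FPKM in sham libraries, did not pass (log2 fold change -0.37, SE 0.169, limma adjusted p 0.140). In WT hearts alone, 4 HSP90 co-chaperones, 3 prefoldin subunits, 2 HSP70 co-chaperones and 1 TRiC subunit were lower and Serpinh1 was higher, and none of these related genes passed in the other 4 comparisons.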

How the data were processed

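The authors deposited 1 table of FPKM values for 8 libraries, named as counts. Per the submitters' processing notes, the genome builds were mm8 and mm10 and the tools were featureCounts 1.5.0-p3, Bowtie 0.12.2 and CASAVA 1.8, without saying what each did; filters, scaling and strandedness are not given in the sources used here. Multiplying each deposited FPKM by its gene length and dividing by a constant for the library gave whole reads (100% of values within 0.01). The library size in that constant was 1.02 to 1.10 times the recovered reads in TAC libraries and 0.886 to 0.945 times in sham libraries. Scaling by the read total would therefore place TAC values higher against sham. Sizes from trimmed-mean scaling, set to the same mean, were 0.989 to 1.02 times the deposited sizes. No value column was left unmapped (0).

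Samples were grouped by genotype and surgery from the labels. Genes with at least 0.5 FPKM and 10 reads in at least 2 libraries were fitted as log2(FPKM + 0.5) with limma 3.58.1 in R 4.3.3 (trend, robust, 1 term per group over all 8 libraries, 4 residual degrees of freedom), with 6 comparisons and Benjamini-Hochberg adjustment over all tested genes at 0.05. A count model was not the main test, since the values are FPKM. Replicates of a group differed by 17.3 to 44.2 chi-square per degree of freedom, beyond counting noise. The fitting steps were also run on simulated counts with the same relative spread in every gene, a simpler setting than these libraries. That run does not measure the error rate here. Alternatives were limma-voom, trimmed-mean (TMM) scaling, other pseudocounts, no filter, only the libraries compared, a replicate block, a clock index and left-out libraries.

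The members and lists were chosen with earlier results of these data known. Named genes are Hspb7 and Hspa1a in every comparison, each member that passed, the 3 smallest p-values where fewer than 3 passed, 12 textbook members, and up to 5 passing genes per related list. Other members given with values (Hspa1b, Dnajb6 and the like) were chosen after their values were seen. Coordinates are GRCm38, identical for 66 of 69 members in GENCODE mouse release 21; sequences are from RefSeq (GRCm38.p6). By BLAST 2.17.0, 13 members had another locus of at least 95% identity over at least 200 bases, so their values are uncertain: Dnaja1, Dnajb6, Dnajb14, Dnajc5b, Dnajc17, Dnajc19, Hsp90aa1, Hspa1a, Hspa1b, Hspa8, Hspb1, Hspd1 and Hspe1.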

Additional observations from a re-analysis of the deposited data

How the results depend on the processing

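No member's value that passed changed sign under any alternative. The alternatives were not examined for the related genes. Among members' values that did not pass, leaving out 1 library turned the sign of Hspb7 between genotypes under TAC (-0.22 to 0.16). It also turned that of Dnaja1 (-0.28 to 0.0014) and Hspa12b (-0.28 to 0.0953) in the average of both genotypes. Over all named members and comparisons, 29 of 91 values that did not pass changed sign somewhere. Members passing in WT hearts numbered 9 as reported, 14 with limma-voom, 14 with the replicate block, 2 with the clock index as a covariate, and 0 with no filter, with only the 4 libraries compared in the fit, or with WT TAC replicate 1 and WT sham replicate 1 both left out; leaving out 1 library at a time gave 0 to 11. In the average of both genotypes they numbered 23 as reported, 8 with no filter and 6 without both of those libraries, with 5 to 23 when 1 library was left out; the fit restricted to the libraries compared is the same fit there and in the interaction, so it gave no separate value. Fewer tested samples leave fewer degrees of freedom; the cause of the other shifts was not tested. The counts of 0 in the other 4 comparisons stayed at 0 under every alternative. The labels do not say what a replicate number marks, and 2 numbers are too few to decide from the data whether they pair the samples: same-numbered libraries deviated together at correlations of 0.0256 to 0.248, all above 0, and the clock index was lower in replicate 1 in all 4 groups. The block, which raised the WT count and cost Hspa1a its call in the average (adjusted p 0.0522), is given only here. Trimmed-mean scaling cost the calls of Dnajc17 and Dnajc4 in WT hearts and of Hspb2 in the average (adjusted p up to 0.0537). Members at 1 to 2 FPKM, such as Hspa1a with 41 to 249 reads, have the least depth behind them.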
